A study of Homo sapiens with 12 samples.

Results

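The genes of retinoid biology followed here were ALDH1A2, ALDH1A3, DHRS3, DHRS9, CRABP2, RARA, RARB, RARG and RXRA, which are 9 of the 23459 rows of the deposited count table. They were taken by name, as genes that make, interconvert, bind or sense retinoic acid, and their levels in these libraries were known when they were chosen. Their values are therefore given as a description, without p-values.

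The libraries are poly(A) RNA sequencing of MCF10A, a human breast epithelial line that does not form tumours, and were made to ask how JUN affects genes that YAP controls. All cells carried an allele of YAP5SA, a form of the coactivator YAP that escapes the Hippo kinases, under a doxycycline-inducible promoter. They had been infected either with a JUN overexpression vector or with an empty vector, and received 100 ng/ml doxycycline (Dox) or ethanol (EtOH), its solvent. This gave 4 groups of 3 libraries, named vector EtOH, vector Dox and, with the JUN vector, JUN EtOH and JUN Dox, described in the study's methods as biological replicates. No culture of parental cells was among them, so all groups share the allele, a vector and the same line, and Dox was always given together with YAP5SA induction, so effects of the drug and of YAP5SA cannot be told apart. Whether the line is a clone is not stated in the sources used here.

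Cells take up retinol, oxidize it reversibly to retinal, and then irreversibly to retinoic acid with aldehyde dehydrogenases of the ALDH1A family. Retinoic acid acts as a ligand of nuclear receptors, which bind DNA as pairs of a retinoic acid receptor (RAR) with a retinoid X receptor (RXR), and CYP26 enzymes break it down. In skin and breast epithelium the pathway is known for its control of differentiation and growth.

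Total counts per library ran from 18594867 to 28993487, with 17324 to 17697 genes counted at least once. All 8 basal mammary epithelial markers examined, KRT5 and TP63 among them, had a mean of at least 1 CPM (counts scaled to a common library size, with TMM factors), as had 4 of 6 luminal, 4 of 5 fibroblast and 1 of 4 immune markers, and 0 of 3 endothelial and 0 of 2 adipocyte markers. CD3E and ADIPOQ had no count in any library, but the fibroblast marker PDGFRA averaged 92.2 to 132.3 CPM over the groups and the immune marker CD14 26.9 CPM with EtOH and 5.32 with Dox in vector cells, and 10.1 and 2.72 in JUN cells. The summed luminal markers had 1282 to 1472 CPM with EtOH and 1522 to 1543 with Dox in vector cells, and 708.4 to 930.2 with EtOH and 510.7 to 883.3 with Dox in JUN cells. The fibroblast sums ran from 111 to 162 CPM over all groups. The summed level of the basal markers moved with the groups, at 7461 to 7876 CPM with EtOH and 3907 to 5070 with Dox in vector cells, against 5712 to 7321 with EtOH and 3473 to 5562 with Dox in JUN cells. KRT5 was the largest part of these sums, and single basal markers differed from them. With EtOH, KRT14, KRT17, TP63 (27.4 against 14.2 CPM) and EGFR averaged higher in JUN than in vector cells, and KRT5, CDH1, EPCAM and ITGB4 lower. EGFR averaged higher with Dox in both kinds of cells, and EPCAM in vector cells. The part of these markers in the results was not tested. JUN itself averaged 47.6 CPM with EtOH and 189.7 with Dox in vector cells, and 1279 and 1248 in JUN cells, so the vector cells given Dox also carried more JUN transcript than those given EtOH. YAP1, whose row can hold reads of the transgene too, had 179.4, 236.5, 234.4 and 279.9 CPM in the same order.

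Members on which the results turn are shown first by the 250 bases before a RefSeq transcription start of each (GRCh38.p14, read along the strand of the gene), to show what lies directly upstream of genes that moved together or apart. Capitals mark letters that match an AP-1 site (TGANTCA, the kind of site JUN binds), a TEAD site (GGAATG, read by the DNA-binding partners of YAP) or a repeat of retinoic acid receptor hexamers.

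ALDH1A3, chr15:100879581-100879830, plus strand: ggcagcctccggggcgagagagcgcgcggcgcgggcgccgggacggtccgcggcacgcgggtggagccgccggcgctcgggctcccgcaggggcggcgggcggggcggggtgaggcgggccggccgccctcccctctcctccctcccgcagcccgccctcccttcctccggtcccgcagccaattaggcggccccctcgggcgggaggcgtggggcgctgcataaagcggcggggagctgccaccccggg

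DHRS3, chr1:12596614-12596863, minus strand: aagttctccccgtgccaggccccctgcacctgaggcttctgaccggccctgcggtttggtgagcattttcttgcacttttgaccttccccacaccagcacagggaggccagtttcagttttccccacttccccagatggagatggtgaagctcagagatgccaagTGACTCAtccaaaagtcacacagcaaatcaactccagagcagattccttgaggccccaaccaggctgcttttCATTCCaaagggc

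RARG, chr12:53232210-53232459, minus strand: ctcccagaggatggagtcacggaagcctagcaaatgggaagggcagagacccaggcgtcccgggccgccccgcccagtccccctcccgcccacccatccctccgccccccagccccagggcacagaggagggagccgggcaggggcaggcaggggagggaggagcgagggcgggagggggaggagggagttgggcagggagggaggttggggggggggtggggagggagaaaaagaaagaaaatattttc

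RXRA, chr9:134326205-134326454, plus strand: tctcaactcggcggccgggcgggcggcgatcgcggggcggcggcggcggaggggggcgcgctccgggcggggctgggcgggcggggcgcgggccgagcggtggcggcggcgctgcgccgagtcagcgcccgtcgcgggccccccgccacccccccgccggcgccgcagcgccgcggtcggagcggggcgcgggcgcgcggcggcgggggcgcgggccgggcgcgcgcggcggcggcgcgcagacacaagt

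RARB, chr3:25428013-25428262, plus strand: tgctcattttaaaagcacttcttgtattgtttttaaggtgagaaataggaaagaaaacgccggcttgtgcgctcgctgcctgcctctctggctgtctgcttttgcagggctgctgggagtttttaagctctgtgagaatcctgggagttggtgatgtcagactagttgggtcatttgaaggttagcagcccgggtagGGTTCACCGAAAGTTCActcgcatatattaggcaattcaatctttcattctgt

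All 9 members matched the RefSeq promoter table, which gives windows of 300 bases, from 250 before a start to 50 after it. The windows were searched on both strands for TGANTCA, for GGAATG, and for receptor hexamers (AGGTCA, or with other letters AGTTCA, or else GGTTCA, or else GGGTCA) placed in direct repeat with a gap of 1, 2 or 5 bases. The only ALDH1A3 window, the only RARG window and both RXRA windows held none of these sites or repeats. DHRS3 had 3 windows, of which the printed window, the most downstream of the 3, held an AP-1 match (TGACTCA) at -85 to -79 and a TEAD match at -13 to -8, counted from its start, and another held a TEAD match. The printed window was the only DHRS3 window with both kinds of match, and the window at the most upstream start held neither. The printed RARB window held the repeat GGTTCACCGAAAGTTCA at -53 to -37, with a gap of 5 bases. Of 35097 promoter windows in the table, 7.71% held the AP-1 letters, 14.0% the TEAD letters and 0.0883% such a repeat with a gap of 5. These are matches of letters in short windows and do not show binding.

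Among the 9 members, 7 passed the filter on low counts and entered a quasi-likelihood fit over 14775 genes (edgeR), in which a gene was called where its Benjamini-Hochberg adjusted p was under 0.05. DHRS9 and RARB did not pass it. YAP5SA induction in vector cells gave 3 called members, 1 higher and 2 lower, where 30.1% of all genes tested were called, 15.6% as higher and 14.4% as lower. JUN overexpression without induction gave 2 higher and 1 lower (39% of all genes, 20.1% higher and 18.9% lower), and JUN overexpression with induction gave 2 higher and 1 lower (35.6%, 18.4% and 17.2%). YAP5SA induction in JUN cells gave 0 higher and 4 lower (21.4%, 11.2% and 10.3%). For the interaction, which sets the log2 induction in JUN cells against the one in vector cells, 1 member was called lower (1.12% of all genes, 0.291% higher and 0.826% lower). The libraries of the groups compared did not overlap for 4, 3, 5 and 3 members, in the order induction in vector cells, JUN without induction, induction in JUN cells and JUN with induction, where this held for 43.9%, 57.8%, 39.3% and 43.4% of all genes. The members were chosen on these levels, so nothing is read from the shares. ALDH1A2 supplied 1 of the calls in each of 3 comparisons, and its row is taken up next because those calls do not describe ALDH1A2.

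**Figure D1:**
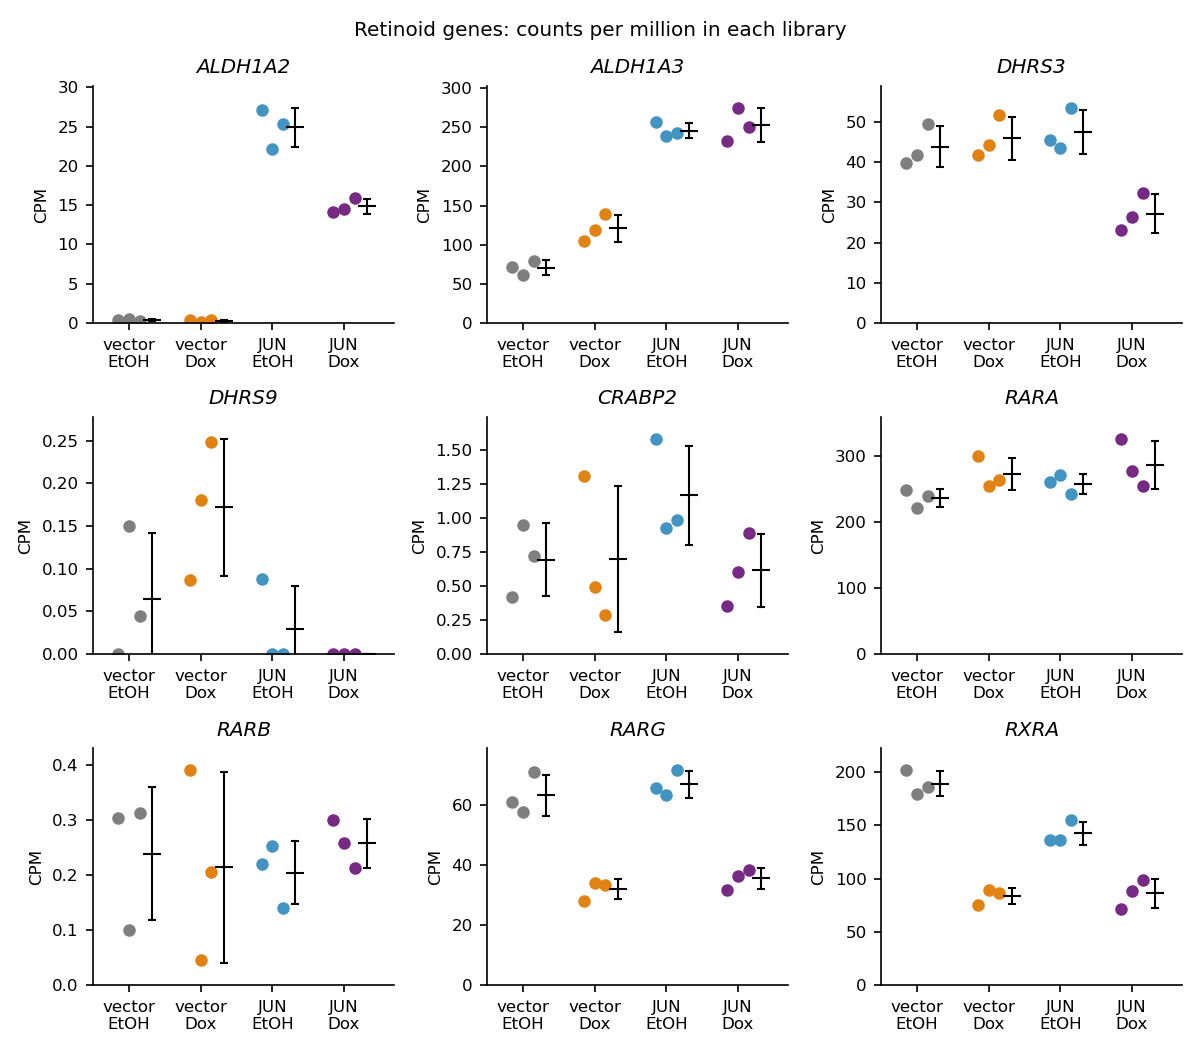
Level of each member in every library, in CPM on a linear axis that starts at 0 and differs between panels. Points are the 3 libraries of each group, and the black bar and whiskers beside them are the mean and SD. ALDH1A3 stands higher in both JUN groups, RARG and RXRA lower in both Dox groups, and DHRS3 lower in JUN Dox. The ALDH1A2 panel shows the row as deposited, which is almost entirely reads of AQP9.

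ALDH1A2 encodes an aldehyde dehydrogenase that makes retinoic acid (Entrez gene 8854, GRCh37 chr15:58245622-58790065, minus strand). As deposited, its row held 11, 10 and 6 counts with EtOH and 8, 3 and 10 with Dox in vector cells, and 617, 526 and 540 with EtOH and 282, 335 and 449 with Dox in JUN cells. Read without regard to position, it would be the member with the greatest contrast between JUN and vector cells. In the GENCODE annotation used here for positions, AQP9, a channel for water and glycerol, is encoded inside the span of ALDH1A2 on the opposite strand, over 47743 of its 544444 bases. The RefSeq starts of ALDH1A2 in the promoter table lie outside AQP9, with windows that end at chr15:58065961 and 58014273 (GRCh38.p14), while the first AQP9 window begins at 58137919. From those starts ALDH1A2 would not enclose AQP9. The AQP9 row held 9, 7 and 5 counts with EtOH and 7, 2 and 8 with Dox in vector cells, and 609, 522 and 538 with EtOH and 276, 333 and 447 with Dox in JUN cells. In each of the 12 libraries the ALDH1A2 row thus exceeded the AQP9 row by only a few reads.

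The difference was 2, 3 and 1 reads with EtOH and 1, 1 and 2 with Dox in vector cells, and 8, 4 and 2 with EtOH and 6, 2 and 2 with Dox in JUN cells. The mean AQP9 count was 98.8% of the mean ALDH1A2 count. Summed over a group and divided by its library sizes, the reads left to ALDH1A2 came to 0.0867 CPM with EtOH (exact Poisson 95% interval 0.0318 to 0.189) and 0.0564 with Dox (0.0154 to 0.144) in vector cells, and to 0.210 with EtOH (0.115 to 0.353) and 0.141 with Dox (0.0677 to 0.260) in JUN cells. More reads remained in the JUN groups, with 14 and 10 against 6 and 4 in the vector groups, but all 4 intervals overlap, they cover counting error only, and at this depth the difference was not tested. A further gene, LIPC, overlaps the span as well with a mean of 1.42 counts, which can add to the remaining reads, while ALDH1A2 reads that lie inside AQP9 would be subtracted with it, so the difference is an estimate and not a bound.

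The annotated exons show where reads of each gene could lie. Of 34 exon blocks annotated for ALDH1A2 in GENCODE, 31 lie outside AQP9 and hold 7406 of its 8127 exonic bases, and the exons of the genes coincide over only 354 bases. By this annotation, reads of spliced ALDH1A2 transcripts would fall mostly where AQP9 is absent. The subtraction leaves 1 to 8 reads per library, but it works on row totals and does not show where any read lies. Counting over whole gene spans without strand would put each AQP9 read into both rows. Among 280 other nested gene pairs that share no exonic base, the enclosing gene had at least the count of the nested gene in all 12 libraries in 209 (74.6%). The remaining pairs did not meet this, and how reads were counted was not tested. Mean counts of the enclosing gene lay within 10% above those of the nested gene in 23 pairs and within 10% below in 1 pair. With the AQP9 counts subtracted, ALDH1A2 no longer passed the filter and could not be fitted, and the called members came to 2 for JUN overexpression without induction, 3 for YAP5SA induction in JUN cells and 2 for JUN overexpression with induction.

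**Figure D2:**
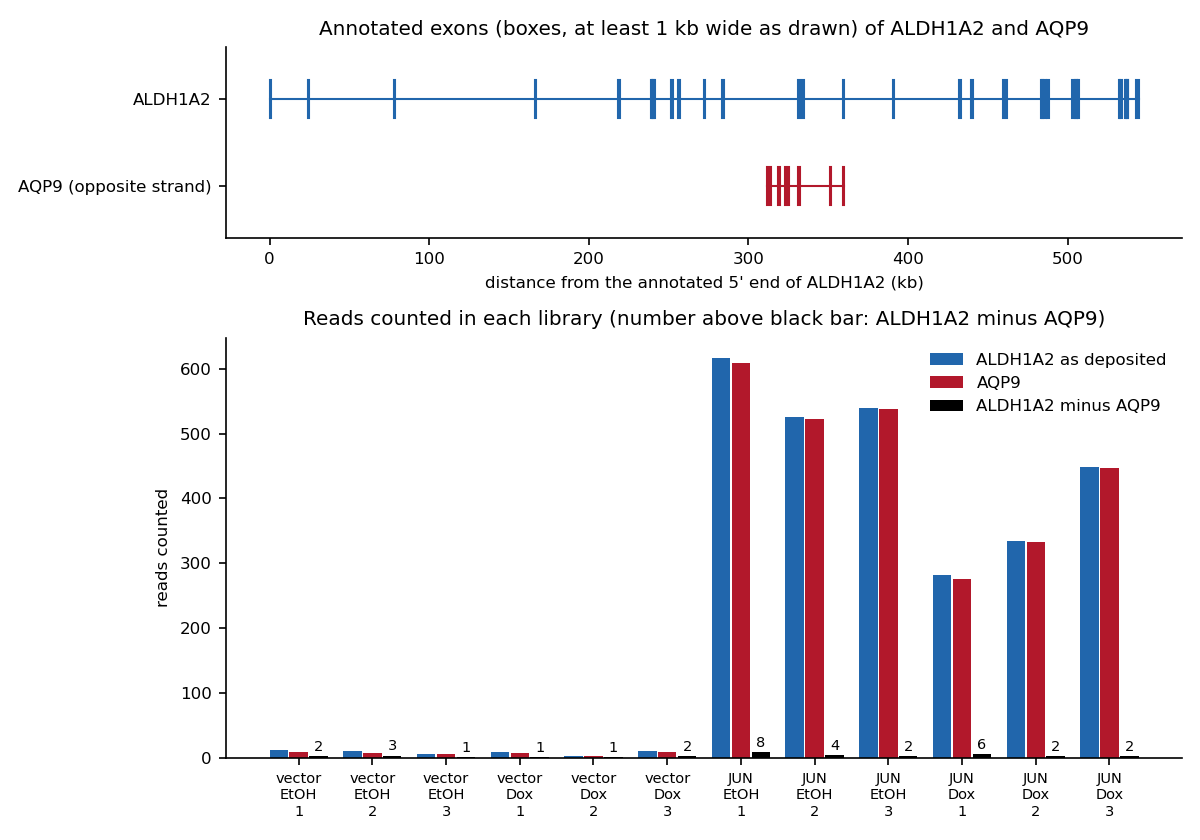
Top, exons of ALDH1A2 and of AQP9 annotated in GENCODE, drawn as boxes against distance in kb from the GENCODE 5' end of ALDH1A2. Bottom, reads counted in each of the 12 libraries for ALDH1A2 as deposited (blue), for AQP9 (red) and for their difference (black, with its value), which is 1 to 8 in every library.

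ALDH1A3, the other retinoic acid-forming enzyme among the members, was well counted, with 1226 to 7036 reads per library (Entrez gene 220, GRCh37 chr15:101417919-101456831, plus strand). Its levels were 71.5, 61.2 and 79.6 CPM with EtOH and 104.8, 118.6 and 139.7 with Dox in vector cells, and 256.3, 238.7 and 242.1 with EtOH and 232.4, 275.2 and 250.0 with Dox in JUN cells. The group means rose in the order vector EtOH (70.8 ± 9.26, SD, n = 3), vector Dox (121.0 ± 17.6), then both JUN groups (245.7 ± 9.35 with EtOH and 252.6 ± 21.5 with Dox), whose libraries overlapped. All 6 JUN libraries lay above all 6 vector libraries. In bulk libraries, fewer expressing cells and less RNA per cell cannot be told apart.

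YAP5SA induction in vector cells raised ALDH1A3 1.71-fold (log2 fold change 0.77, SE 0.12), and JUN overexpression without induction raised it 3.47-fold (1.80, SE 0.13). With induction the JUN vector still raised it 2.09-fold (1.06, SE 0.12). In JUN cells, induction gave a log2 fold change of 0.04 (SE 0.12), with a 95% interval from -0.20 to 0.28, and was not called. The interaction was -0.73 (SE 0.17) and did not pass the threshold in the edgeR fit, although DESeq2, a fit without the filter and a fit without vector Dox replicate 1 called it. An antisense transcript, ALDH1A3-AS1, overlaps its exons over 1715 bases in the annotation, and the library kit does not mark strand, so reads of both would be counted together.

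DHRS3 reduces retinal back to retinol and so limits the retinal available for oxidation (Entrez gene 9249, GRCh37 chr1:12627939-12678216, minus strand). It had 39.9, 41.9 and 49.6 CPM with EtOH and 41.7, 44.2 and 51.8 with Dox in vector cells, and 45.4, 43.4 and 53.6 with EtOH and 23.0, 26.2 and 32.4 with Dox in JUN cells. The first 3 groups overlapped, with means of 43.8 ± 5.12, 45.9 ± 5.26 and 47.5 ± 5.36 CPM (SD, n = 3), and only JUN Dox (27.2 ± 4.75) stood apart, below each of the other 9 libraries.

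In JUN cells, YAP5SA induction lowered DHRS3 1.74-fold (log2 fold change -0.80, SE 0.14), and with induction the JUN vector lowered it 1.68-fold (-0.75, SE 0.14). Neither manipulation alone was called, with 0.07 (SE 0.14, 95% interval -0.20 to 0.34) for induction in vector cells and 0.12 (SE 0.14, -0.15 to 0.38) for JUN without induction. The interaction was -0.87 (SE 0.19) and was called, the only member for which this was so, but 10 of 12 fits that each left out a library lost the call, with log2 values from -1.01 to -0.74 over all alternatives. The DHRS3 windows were the only ones among the called members to hold an AP-1 or TEAD match, but 3 windows were searched for DHRS3. For ALDH1A3 and RARG 1 each was searched, and for RXRA 2. Members not called or not tested held such matches too, with AP-1 in 1 of 4 DHRS9 windows and TEAD in 1 of 3 RARA and 2 of 4 RARB windows.

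DHRS9, a dehydrogenase that oxidizes retinol to retinal, was near the limit of detection (Entrez gene 10170, GRCh37 chr2:169921299-169952677, plus strand). Its counts were 0, 3 and 1 with EtOH and 2, 4 and 6 with Dox in vector cells, 2, 0 and 0 with EtOH in JUN cells, and 0 in each JUN Dox library, where up to 3 reads per library remain possible. A count of 3, taken as the floor per library, corresponds to 0.107 to 0.15 CPM, and 10 of the 12 libraries were at or under it. The vector Dox libraries together held 12 reads, vector EtOH 4 and JUN EtOH 2, but the gene did not enter the fit and no fold change is given.

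CRABP2, which carries retinoic acid to its receptors in the nucleus, was also low (Entrez gene 1382, GRCh37 chr1:156669398-156675608, minus strand). It had 11, 19 and 16 counts with EtOH and 30, 11 and 7 with Dox in vector cells, and 36, 22 and 21 with EtOH and 7, 14 and 25 with Dox in JUN cells. The vector Dox libraries alone spread from 0.289 to 1.31 CPM and overlapped every other group. None of the contrasts was called, and the intervals were wide, for instance -0.19 to 1.73 around a log2 fold change of 0.77 for JUN overexpression without induction. YAP5SA induction in JUN cells had a log2 fold change of -0.88 (SE 0.49), and although the 3 JUN Dox libraries lay below the 3 JUN EtOH libraries in CPM, this was not called either.

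Among the receptors, RARG and RXRA fell with YAP5SA induction, RARA was not called, and RARB was too low to test. RARG, an RAR that predominates in epidermis, had 61.0, 57.8 and 71.0 CPM with EtOH and 28.2, 34.2 and 33.5 with Dox in vector cells, and 65.7, 63.3 and 71.9 with EtOH and 31.8, 36.4 and 38.5 with Dox in JUN cells (Entrez gene 5916, GRCh37 chr12:53604351-53626764, minus strand). Each of the 6 Dox libraries lay below each of the 6 EtOH libraries, while vector and JUN libraries overlapped within either treatment. Induction lowered RARG 1.98-fold in vector cells (log2 fold change -0.99, SE 0.11) and 1.88-fold in JUN cells (-0.91, SE 0.11). The JUN vector gave 0.08 (SE 0.11) without induction and 0.16 (SE 0.11) with it, neither called. The interaction was 0.07 (SE 0.16), with a 95% interval from -0.24 to 0.39.

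RXRA, the RXR partner of these receptors and of many other nuclear receptors, had 202.4, 179.2 and 185.8 CPM with EtOH and 74.9, 89.1 and 86.6 with Dox in vector cells, and 136.5, 136.4 and 154.6 with EtOH and 71.6, 88.6 and 98.6 with Dox in JUN cells (Entrez gene 6256, GRCh37 chr9:137208944-137332431, plus strand). The order of the means was vector EtOH (189.2 ± 11.96, SD, n = 3), JUN EtOH (142.5 ± 10.5), then both Dox groups (83.5 ± 7.57 in vector and 86.3 ± 13.7 in JUN cells), which overlapped. Induction lowered RXRA 2.26-fold in vector cells (log2 fold change -1.18, SE 0.12) and 1.65-fold in JUN cells (-0.72, SE 0.12). JUN overexpression without induction lowered it 1.33-fold (-0.41, SE 0.12), a call that was lost without vector EtOH replicate 1, without JUN EtOH replicate 1 and without JUN EtOH replicate 2. With induction the JUN vector gave 0.05 (SE 0.12), and the interaction of 0.46 (SE 0.17) was not called. RXRA and RARG were the only members called lower in vector cells on induction, and the printed windows of both lacked the letters searched for.

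RARA, the RAR found in most tissues, was counted with 4430 to 7171 reads per library, so depth did not limit it (Entrez gene 5914, GRCh37 chr17:38465432-38513895, plus strand). Its levels were 248.4, 221.0 and 239.7 CPM with EtOH and 300.3, 254.1 and 264.7 with Dox in vector cells, and 261.2, 271.7 and 242.0 with EtOH and 326.8, 277.4 and 254.8 with Dox in JUN cells. The vector Dox libraries lay above the vector EtOH libraries, and all other pairs of groups compared overlapped. None of the contrasts was called. The log2 fold change was 0.21 (SE 0.11, 95% interval -0.01 to 0.43) for induction in vector cells and 0.15 (SE 0.11, -0.07 to 0.37) in JUN cells, so falls of the size measured for RARG and RXRA lie outside these intervals. RARA-AS1 overlaps RARA exons over 556 bases on the opposite strand and would be counted with it.

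RARB, an RAR gene that retinoic acid itself is known to induce in many cells, was barely detected (Entrez gene 5915, GRCh37 chr3:24729378-25639423, plus strand). It had 8, 2 and 7 counts with EtOH and 9, 1 and 5 with Dox in vector cells, and 5, 6 and 3 with EtOH and 6, 6 and 6 with Dox in JUN cells. The group sums were 17, 15, 14 and 18 reads, and the libraries of all groups overlapped. The gene did not pass the filter, so differences between groups were not tested, and these counts are too few to resolve small ones. Its printed window is the only window of a member that held a hexamer repeat.

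**Figure D3:**
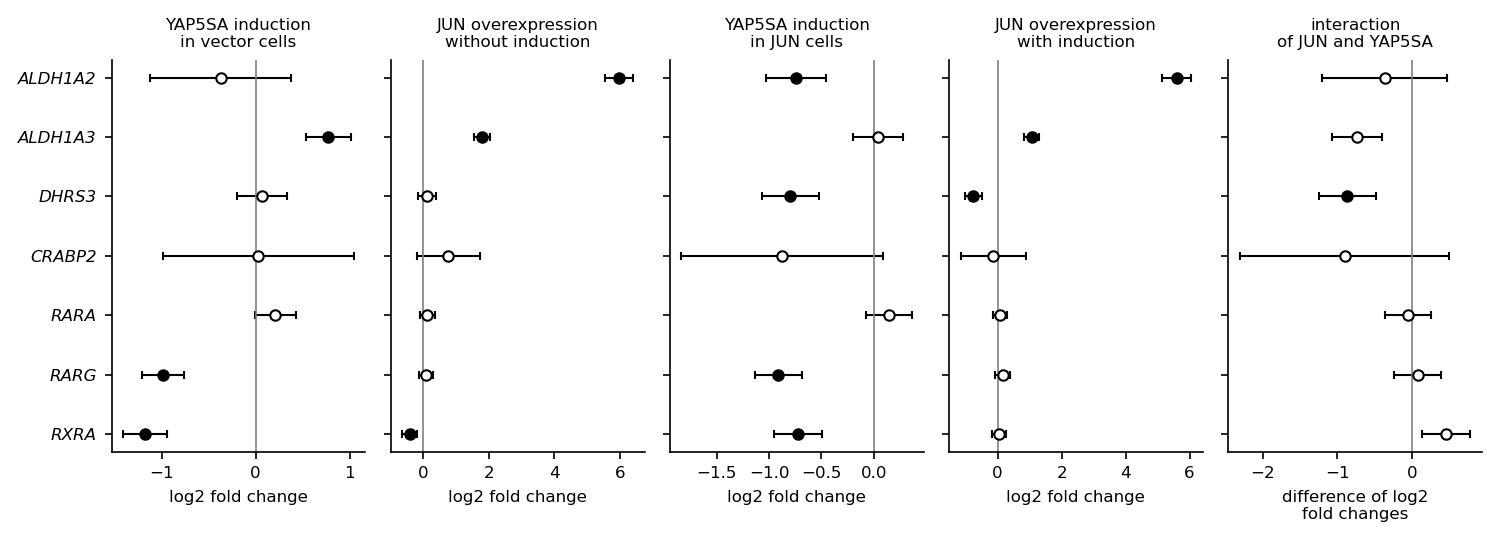
Fitted log2 fold changes of the 7 members that passed the filter, with 1 panel per contrast and its own axis range. Points are estimates from the fit to all 12 libraries, whiskers are 95% intervals, and filled points were called. RARG and RXRA lie left of 0 for YAP5SA induction in both kinds of cells, and ALDH1A3 lies right of 0 for JUN in both treatments. The ALDH1A2 points reflect AQP9 reads.

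Some libraries stood at the edge of their group for several members. Vector Dox replicate 1 was the lowest of its group for ALDH1A3, DHRS3, RARG and RXRA and the highest for RARA, RARB and CRABP2, and JUN Dox replicate 1 was likewise lowest for ALDH1A3, DHRS3, RARG and RXRA and highest for RARA and RARB. JUN Dox replicate 1 was also the shallowest of the 12 libraries. All pairwise calls of ALDH1A3, DHRS3 and RARG, and both calls of RXRA on induction, were kept in each of the 6 fits per comparison that left out 1 of its libraries. Each group enters 2 of the 4 pairwise comparisons, so these are not independent of each other.

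To describe each pattern further, the gene's log2 CPM was correlated over the 12 libraries with that of each of 11358 genes whose mean reached 5 CPM. These correlations reflect the 4 groups and carry no p-value. The gene most like ALDH1A3 was DSTYK (Pearson r = 0.992), followed by JUN (0.989) and RFTN1 (0.985). Genes near RXRA were ACOT11 (0.992) and SLC27A3 (0.983). For RARG the nearest were IRF2BPL (0.983), ARHGEF4 (0.982) and LOC100131635 (0.981). For DHRS3 they were TRIB2 (0.886), CDH1 (0.884) and BDKRB1 (0.877). RARA was nearest to TOP2A (0.937), IFRD1 (0.936) and AFG3L1P (0.934), and CRABP2 to S100A10 (0.862), RNF181 (0.845) and STYXL1 (0.844). The nearest to the deposited ALDH1A2 row, which stands for AQP9, were TMOD2 (0.994), UGP2 (0.993) and STX12 (0.988).

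Around the members, 63 other genes of the pathway were listed by role, also with earlier results of these libraries known, and 46 of them passed the filter. Adjusted p-values printed for these genes therefore describe the fits and are not an independent test. YAP5SA induction raised 8 and lowered 16 of the 46 in vector cells, with a median log2 fold change of -0.21 beside 0.01 over all genes tested, of which 15.6% were called higher and 14.4% lower. It raised 3 and lowered 12 in JUN cells (median -0.14 beside 0.0032, with 11.2% of all genes higher and 10.3% lower). JUN overexpression raised 14 and lowered 10 without induction (median 0.12 beside 0.00056, with 20.1% and 18.9%), and raised 17 and lowered 7 with it (median 0.33 beside 0.0030, with 18.4% and 17.2%). The interaction was called for 2, where 1.12% of all genes were called. In the following, a call is said to be lost where a fit that left out 1 of the 6 libraries compared no longer made it.

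CYP26B1, which hydroxylates retinoic acid for clearance, was called lower on induction in both kinds of cells, as RARG and RXRA were, and averaged 33.1 CPM with EtOH and 8.69 with Dox in vector cells and 36.9 and 18.0 in JUN cells. It fell by 1.93 on the log2 scale in vector cells (SE 0.11, edgeR Benjamini-Hochberg adjusted p 7.97e-09) and by 1.04 in JUN cells (SE 0.10, edgeR adjusted p 4.9e-06), and the difference of 0.89 was itself called (SE 0.15, edgeR adjusted p 0.00587). CYP27C1 also fell, with -0.99 and -1.37, at 11 to 32 counts per vector library, and the call in vector cells was lost in 5 of 6 such fits (edgeR adjusted p up to 0.156). CYP26A1 and CYP26C1 did not pass the filter.

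Of 8 tested genes of uptake and storage, STRA6, the cell-surface receptor for retinol-binding protein, fell with induction (-2.03 in vector and -1.52 in JUN cells) and rose with the JUN vector (1.44 without and 1.95 with induction), at 0.677 to 7.58 CPM. RBP4, the plasma carrier of retinol, rose with the JUN vector (2.72 and 2.47, edgeR Benjamini-Hochberg adjusted p 1.39e-07 and 4.04e-07). LRAT, which esterifies retinol for storage, fell with it (-0.96 and -1.07). RPE65, which converts retinyl esters in the visual cycle, fell with induction from 27.1 to 16.7 CPM in vector cells (-0.70) and from 54.5 to 37.3 in JUN cells (-0.55), the latter call being lost without JUN EtOH replicate 1 and without JUN Dox replicate 2. RPE65 and BCO2 rose with the JUN vector in both treatments, with the BCO2 call without induction lost without vector EtOH replicate 2. DGAT1 was called lower with JUN in both treatments (-0.35 and -0.34), but each call was lost in 5 of 6 fits (edgeR adjusted p up to 0.157 and 0.183). PNPLA4 fell without induction (-0.59) and was not called with it (-0.09).

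Of 12 tested genes that interconvert retinol and retinal, RDH10, which forms retinal, rose with induction in vector cells (0.61) and fell with the JUN vector (-0.39 without and -0.91 with induction), and RDH13 did the same (0.51, -0.71 and -1.03). The RDH10 call for JUN without induction was lost in 5 of 6 fits (edgeR adjusted p up to 0.188). SDR16C5 fell with induction (-1.57 and -1.20) and rose with JUN (0.53 and 0.90), the first of these rises being lost in 4 of 6 fits (edgeR adjusted p up to 0.147). AKR1C3 fell with induction (-1.29 and -1.10). AKR1B10 fell with induction in vector cells (-1.88) and with JUN (-3.05 in both treatments). No library of JUN cells held more than 7 AKR1B10 reads, and 4 of the 12 libraries were at or under 3 counts. The size of its fall with JUN is therefore uncertain. RDH5 rose (1.08) and DHRS4 fell (-0.44) with JUN without induction. Both of these calls were lost in 4 of 6 fits (edgeR adjusted p up to 0.0953 and 0.0679). Near-identical copies in the AKR1 and FABP families, and overlapping rows at DHRS4, RBP5, HOXA5, NCOR1, NR2F1, BHLHE40 and LAMB1, leave those values uncertain. So do more abundant neighbours that overlap an end of the gene, which are RPL7 at RDH10 (mean count 4937 against 342, over 1188 bases), HSF1 at DGAT1 (3005 against 998, over 137 bases) and SLC39A7 at RXRB (2704 against 632, over 361 bases).

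FABP5, which carries retinoic acid towards PPARD, rose with induction (0.52 and 0.67) and fell with JUN (-0.72 and -0.57), whereas PPARD itself rose in all 4 comparisons, from 34.5 CPM in vector EtOH to 128 in JUN Dox (0.78, 1.28, 0.61 and 1.11). The FABP5 rise in vector cells was lost in 3 of 6 fits (edgeR adjusted p up to 0.078). RBP5 rose with JUN without induction (1.63), a call lost without vector EtOH replicate 3 and without JUN EtOH replicate 2. RXRB, with 25.3 to 28.1 CPM, was not called in any contrast. Of the 6 coregulators, NCOA1, NCOA2 and NCOA3 fell with induction in vector cells (-0.60, -0.31 and -0.60), NCOA3 also in JUN cells (-0.92), NRIP1 rose with JUN without induction (0.81), and NCOA1 and NCOR1 rose with JUN under induction (0.70 and 0.31). Of these, the calls of NCOA2 in vector cells and of NCOR1 were each lost in 3 of 6 fits (edgeR adjusted p up to 0.0945 and 0.0914), and that of NCOA3 in vector cells without vector EtOH replicate 3.

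Of 14 tested genes known to respond to retinoic acid, TGM2 was called higher in the same 3 comparisons as ALDH1A3, with 0.74 for induction in vector cells, 2.47 and 1.57 for JUN, and -0.15 (not called) for induction in JUN cells, but TGM2 overlaps RPRD1B by 396 bases. RAI14 was called higher in them too (0.54, 0.94 and 0.36). HOXA5 and BHLHE40 fell with induction in both kinds of cells (-0.82 and -0.73, and -1.22 and -0.86). NR2F2 rose in both (0.44 and 1.01), NR2F1 rose in vector cells (1.20), MEIS1 fell in JUN cells (-0.76) and rose with JUN without induction from 1.79 to 3.02 CPM (0.75), and MEIS2, NAV2 and LAMB1 fell in vector cells (-0.35, -0.62 and -0.53). Both MEIS1 calls and the MEIS2 call were lost in 4 of 6 fits (edgeR adjusted p up to 0.224, 0.172 and 0.167), and the MEIS2 call also without the filter and with only the libraries compared, while the NAV2 call was lost without vector EtOH replicate 1 and with only the libraries compared. With induction, JUN raised MEIS2, NAV2, LAMB1, BHLHE40, NR2F2 and RAI14 and lowered NR2F1 (-1.77). Among these, the RAI14 call was lost in 3 of 6 fits (edgeR adjusted p up to 0.0793) and the BHLHE40 call without JUN Dox replicate 2.

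**Figure D4:**
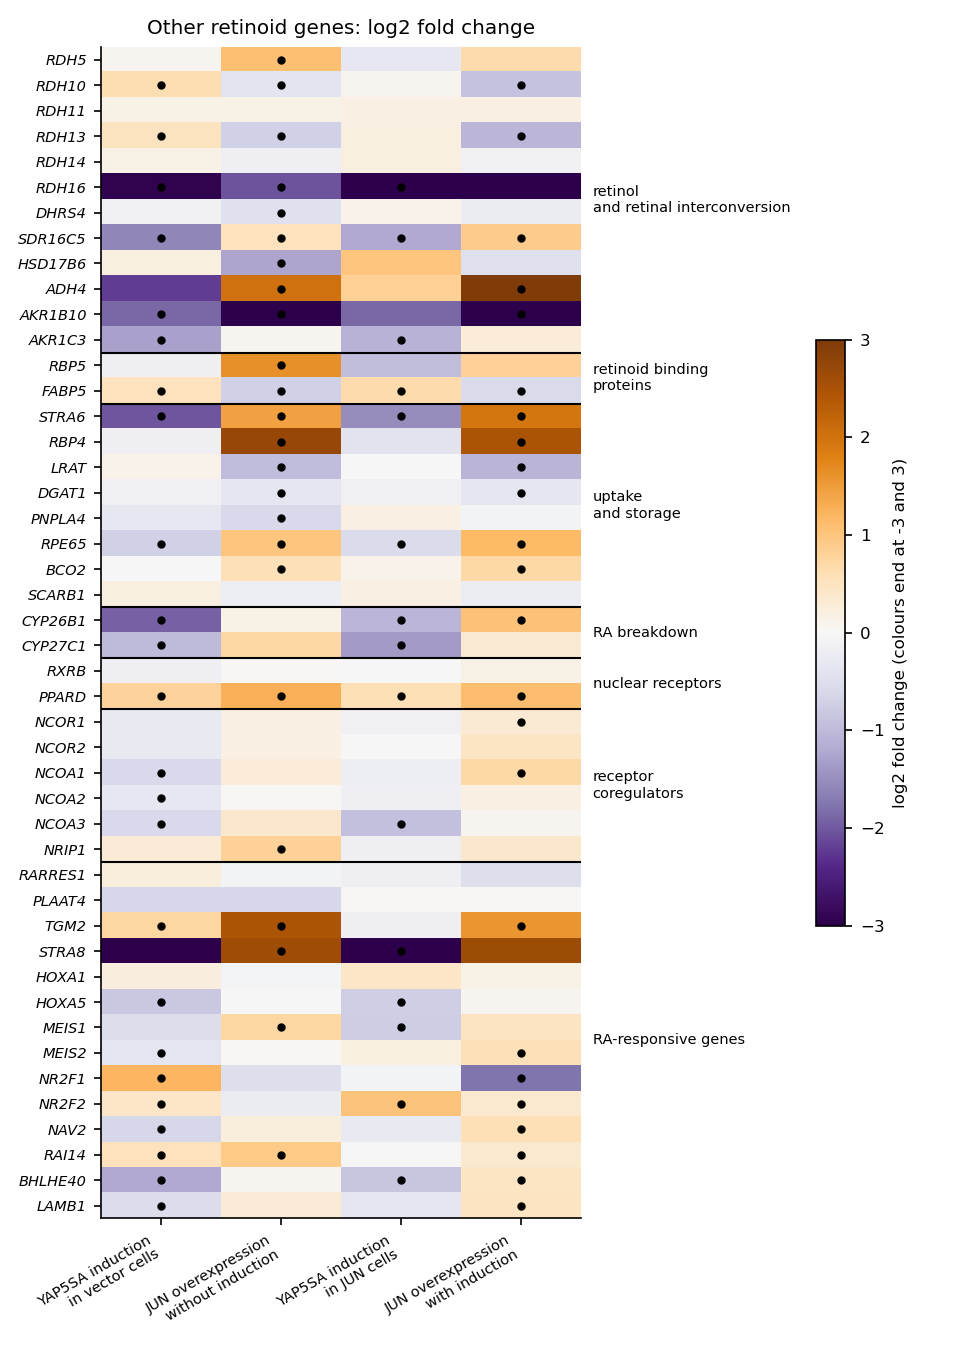
Fitted log2 fold changes of the 46 tested pathway genes that are not members, in rows grouped by role, for the 4 pairwise comparisons in columns. Colours run from purple (lower) to orange (higher) and end at -3 and 3, and dots mark called genes. STRA6 and SDR16C5 are lower with induction and higher with JUN, and PPARD is higher in all 4 columns.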

How the data were processed

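RNA sequencing of 12 MCF10A libraries was analysed. The authors deposited raw counts per Entrez gene ID, not normalized. By the methods, 75 bp single-end poly(A) reads were trimmed with Cutadapt, aligned to hg19 with Bowtie2 and counted with countOverlaps. The versions in the submitters' processing notes are Cutadapt 4.2 and Bowtie2 2.3.5.1, and the methods give another version of Bowtie2. Bowtie2 does not split reads at introns, so reads across exon junctions are largely lost. The gene annotation used for counting is not given in the sources used here, and the library kit does not mark strand, so overlapping genes can share reads. The authors tested with DESeq2.

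Symbols came from RefSeq (99.4% of IDs matched) and GRCh37 positions from GENCODE v44lift37 (1-based). The members and gene lists were chosen with earlier results of these data known. Genes were filtered with filterByExpr (minimum count 10, minimum total count 15), leaving 14775, and fitted with edgeR 4.0.16 (TMM, robust quasi-likelihood, all 12 libraries, R 4.3.3), with Benjamini-Hochberg adjustment over all genes. The SE is the log2 fold change over the square root of F. The fit was tested on simulated data. Groups came from sample titles. No batch is given. P-values set each difference against the spread between libraries within groups, estimated over all 12 libraries together and drawn towards that of other genes. CPM floors (3 counts) and Poisson intervals cover counting error only, as reads carried no molecular identifiers. Replicates differed beyond sampling noise (chi-square per degree of freedom 7.89 to 60.1).

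Named genes were the members, JUN, YAP1, genes overlapping a member, listed pathway genes called in at least 1 pairwise comparison with a mean of at least 1 CPM in a group, and per tested member the 3 genes of at least 5 CPM most correlated with it (prior count 2). A single one of these genes is not reported here. CYP26A1, CYP26C1 and RXRB were named after their values were seen. Alternatives were DESeq2 1.42.0, RLE and upper-quartile factors, no filter, only the libraries compared, a replicate block, each library left out, and subtraction of AQP9 counts.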

Additional observations from a re-analysis of the deposited data

Results flagged for a closer look

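DHRS3 was flagged because its response to YAP5SA induction differed between JUN and vector cells by the interaction test, at -0.87 on the log2 scale (SE 0.19). Its log2 fold change was -0.80 in JUN cells and 0.07 in vector cells. The call was lost in 10 of 12 fits that each left out a library, in which the log2 value was -0.96 to -0.74, and was kept without vector Dox replicate 1 and without JUN Dox replicate 3.

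CYP26B1 was flagged by the same test, at 0.89 (SE 0.15, edgeR Benjamini-Hochberg adjusted p 0.00587, with adjusted p up to 0.0248 over the alternatives), with a smaller fall in JUN cells than in vector cells. NR2F2 was flagged at 0.57 (SE 0.12, edgeR Benjamini-Hochberg adjusted p 0.0337), with a larger rise in JUN cells, and lost the call in 10 of 12 such fits and without the filter on low counts, where the adjusted p reached up to 0.118. MEIS2 was flagged because all 3 vector Dox libraries lay below the vector EtOH libraries and all 3 JUN Dox libraries above the JUN EtOH libraries, a difference of 0.56 that the interaction did not call (edgeR Benjamini-Hochberg adjusted p 0.202). The causes were not tested.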

How the results depend on the processing

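Over all alternatives, 438 of 454 member values kept their direction and their side of the threshold, 13 lost and 3 gained a call, and none reversed. Among the other pathway genes this held for 2833 of 2983, with 109 calls lost, 41 gained and none reversed. The interaction calls moved most. Members called for it were 1 in the fit as reported, 2 with DESeq2, 2 without the filter and 0 to 2 when a library was left out, and 3 members had an unadjusted p under 0.05. The cause was not tested. Other pathway genes called for it were 2, with 5 in DESeq2, 1 without the filter and 1 to 3 when a library was left out. For JUN overexpression without induction, the 24 calls among other pathway genes became 15 to 21 when a library was left out, with 15 without vector EtOH replicate 2 and 15 without JUN EtOH replicate 2, where fewer libraries were fitted. Reads left to ALDH1A2 were 6, 4, 14 and 10 per group against 27, 21, 1683 and 1066 as deposited. Without the filter DHRS9 entered the fit, and 4 members in place of 3 were called for JUN overexpression with induction. Same-numbered libraries of compared groups correlated at -0.258 to 0.466 in their deviations from group means. For JUN overexpression without induction each was closest to its own number (0.153, 0.0825 and 0.0743). For induction in JUN cells replicates 1 and 3 were (0.283 and 0.466), and in vector cells only replicate 3 (0.106). These values do not settle whether the numbers mark pairs, and the fit as reported did not pair them. A replicate block called 3, 3, 4, 3 and 1 members over the 5 contrasts, as without it, and 26, 24, 14, 24 and 2 other pathway genes against 24, 24, 15, 24 and 2. Scaling by RLE or upper-quartile factors left every count of member calls as reported. Depth limits ALDH1A2, DHRS9, RARB and CRABP2.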

Other observations

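Whether reads were shared at other loci as at ALDH1A2 was not tested. In 23 of 280 nested pairs without shared exonic bases, the mean count of the enclosing gene was that of the nested gene or up to 10% more, so rows of other enclosing genes may also hold mostly reads of the gene inside them. The enclosing gene had at least the count of the nested gene in all 12 libraries in 209 of the 280 pairs, and not in the others. The fall of CYP26B1 with induction and of both RARG and RXRA concerns breakdown and sensing of retinoic acid. The receptors RARA and RXRB were not called in any contrast. The retinoic acid level itself was not measured in these libraries.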
